A study of Populus tremula x Populus alba with 24 samples.

Results

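The 186 genes described here are poplar root genes whose most abundant transcript in control roots was replaced by another of their own transcripts at 8 h and 24 h after a rhizobial signal, while the summed level of the gene stayed close to the control. They were chosen from measured values. Transcript levels, in TPM (the usual relative abundance corrected for transcript length and library total), were summed per gene from group means. A gene was taken when the sum reached 3 TPM in 8 h, 24 h and control roots, when a single transcript held at least 60% of the sum in control roots and a single other transcript held at least 60% at both 8 h and 24 h, and when log2(TPM + 1) of the sum differed from the control by less than 0.58 at both times. Below, the first is called the control transcript and the second the late transcript. Of 42950 genes in the table, 10531 had 2 or more transcripts listed, 5906 of these reached 3 TPM in the 3 groups, and 186 met the whole rule.

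The study followed roots of hybrid poplar, Populus tremula x alba, after lipochitooligosaccharides (LCO), the signal molecules that rhizobia and some fungi send to plant roots. All plants were of 1 clone, INRA 717-1B4, grown in vitro on medium low in nitrogen and phosphate. Roots were flooded for 1 h, beginning 3 h after dawn, with 10 nM LCO of Rhizobium sp. IRBG74. A control solution contained 0.005% ethanol. Libraries, each a pool from 4 plants, were of control roots at time 0 (n = 3) and of LCO-treated roots at 7 times: 15 min with 3 libraries, 30 min with 2, then 1 h with 3, 2 h with 2, and 4 h, 8 h and 24 h with 3 each. The labels do not say plainly whether control roots were immersed. Because the control was collected at time 0 only, LCO, time since flooding and, other than at 24 h, time of day cannot be told apart. In whole roots, a smaller number of cells of a type and less RNA per cell cannot be told apart either.

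A plant gene can give several transcripts when introns are removed or kept differently, or when transcription starts or ends at another place. Retained introns are the most common form of alternative splicing in plants. Such transcripts can code for different proteins, or for none, so a gene may change its product with no change in its total RNA. Programs that quantify transcripts without full alignment, such as kallisto, divide reads that fit several transcripts of a gene between them by an estimate, and the division can be unstable where the transcripts differ in few bases. No annotation of the genes or transcripts was used here, so genes go by their Potri identifiers and transcripts by their numbers, and no function is given.

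The libraries fell into sets that did not follow the groups throughout, and this bears on every result below. At 15 min, replicates 1 and 3 stood apart from replicate 2. Transcripts listed at 0 numbered 19159, 25461 and 19054 of 63498 in the 15 min libraries in replicate order. They numbered 18599 to 20108 at 8 h, 18599 to 19053 at 24 h and 21759 to 22350 in control roots, and 20873 to 27673 in the 10 libraries of 30 min to 4 h. The read number behind each library is unknown.

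By construction, all 186 genes had the late transcript on top at 8 h and 24 h, and these values are a description with no test. The median over genes of the late transcript's share of the gene's sum was 78.4% at 8 h and 81.7% at 24 h, against 21.5% in control roots, each share being the mean over the group's libraries. The gain in share had a median of 59.7 percentage points at 8 h, with a range of 21.7 to 99.4, and a median of 61.7 at 24 h, with a range of 18.6 to 98.4. The late transcript's share in every 8 h library lay above that in every control library in 158 of 186 genes. The share in every 24 h library lay above that in every control library in 162 genes. The same libraries chose the genes, so high counts here follow in part from the rule. No such count was made for genes outside the 186, so these counts do not measure how consistent the switch was. The switch was rarely a replacement of all by none. The control transcript was listed above 0 in all 6 libraries of 8 h and 24 h in 102 genes, and listed at 0 in all 6 in 3 genes. The late transcript was listed at 0 in all 3 control libraries in 8 genes.

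The genes were of low to moderate abundance. Their summed level had a median of 10.3 TPM at 8 h and 10.3 TPM at 24 h, against 9.76 TPM in control roots, and the highest sum was 278 TPM at 8 h, 316 TPM at 24 h and 365 TPM in control roots. Under a mean of 10 TPM lay 86 of the 186 genes, and 18 reached 50 TPM. The log2 difference of the sum from the control had a median of 0.12 at 8 h and 0.09 at 24 h, against 0.11 at both times in the other 5720 genes that had 2 or more transcripts and at least 3 TPM. At the times that the rule did not use, most sums also stayed within 0.58 of the control: 173 genes did so at 15 min and 165 at 30 min, followed by 180 at 1 h, 170 at 2 h, and 176 at 4 h. The share of the other 5720 genes that did so was not counted, so whether this is particular to the 186 is not known. The control libraries here are also those that the rule used. In the separately normalized gene table, 176 of the 186 genes lay within 0.58 of the control at both 8 h and 24 h.

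Genes near the limits show what the rule decided. Just inside the limit on share were Potri.008G118500, whose smallest deciding share was 60.2%, and Potri.007G008000 at 60.3%; just outside were Potri.006G061800 and Potri.011G031900, at 59.99% and 59.97%. On the limit of the sum, Potri.010G148500 and Potri.018G128400 were inside at 3.1 and 3.16 TPM, while Potri.007G081300 and Potri.004G037200 were outside at 2.99 and 2.90 TPM. On the limit of the log2 difference of the sum, Potri.015G140100 and Potri.014G031200 were inside at 0.578 and 0.574, while Potri.010G002500 and Potri.010G161500 were outside at 0.585 and 0.594.

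Library by library, the late transcript was not a late one in 2 of the 3 libraries at 15 min. The median share of the late transcript over the 186 genes was 29.2%, 13.5% and 8.79% in the control libraries, in replicate order here and below. At 15 min it was 92.7%, 1.61% and 62.6%. At 30 min it was 9.21% and 1.61%, at 1 h 34.0%, 3.43% and 0.319%, at 2 h 9.29% and 1.75%, and at 4 h 4.72%, 16.8% and 27.2%. At 8 h it was 86.0%, 78.9% and 83.3%, and at 24 h 86.7%, 93.1% and 78.7%. The course was thus high in replicates 1 and 3 at 15 min, low in every library of 30 min to 4 h, and high in every library at 8 h and 24 h. The genes go by the name late for the times that chose them, and replicates 1 and 3 at 15 min go against a reading of that name as a first appearance at 8 h.

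**Figure D1:**
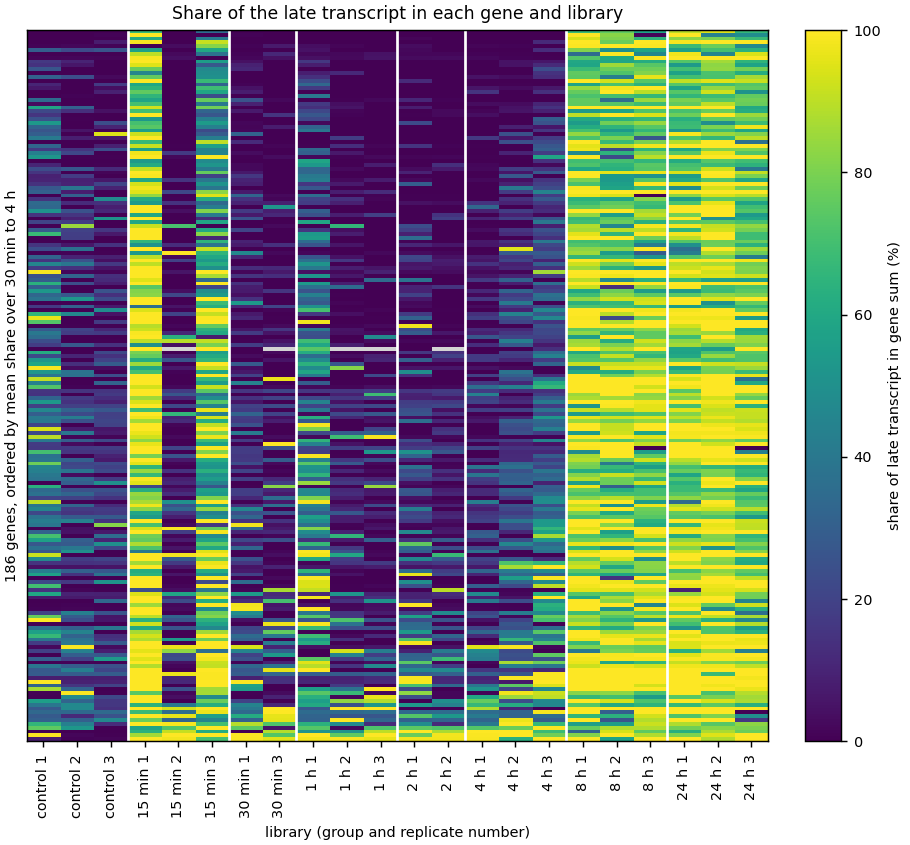
Share of the late transcript in the summed TPM of its gene, in percent (colour, 0 to 100), for 186 genes (rows, ordered by their mean share over 30 min to 4 h) in 22 libraries (columns, by group and replicate number); pale grey cells are genes with a sum of 0. Columns for 15 min replicates 1 and 3 resemble those of 8 h and 24 h, with median shares of 62.6% to 93.1%, and the column for 15 min replicate 2 resembles those of 30 min to 4 h.

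The same was seen in counts of genes. The late transcript exceeded the control transcript in 41, 5 and 5 of the 186 genes in the control libraries, in 181, 20 and 140 at 15 min, and in 14 and 19 at 30 min. It did so in 61, 16 and 16 genes at 1 h, in 22 and 8 at 2 h, and in 11, 18 and 40 at 4 h. At 8 h the numbers were 180, 171 and 179, and at 24 h they were 183, 183 and 172. At 15 min, 137 genes had the late transcript larger in both replicates 1 and 3, and in 120 of these it was not larger in replicate 2. It was larger in all 3 libraries of 15 min in 17 genes and in none of them in 2 genes. Over the 10 libraries of 30 min to 4 h, it was larger in none in 83 genes, in 1 in 52 genes, in 2 to 4 in 43 genes, in 5 to 9 in 6 genes and in all 10 in 2 genes. The exact pattern of late transcript larger in all 8 libraries of 8 h, 24 h and 15 min replicates 1 and 3, and in none of the other 14, held in 32 genes.

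**Figure D2:**
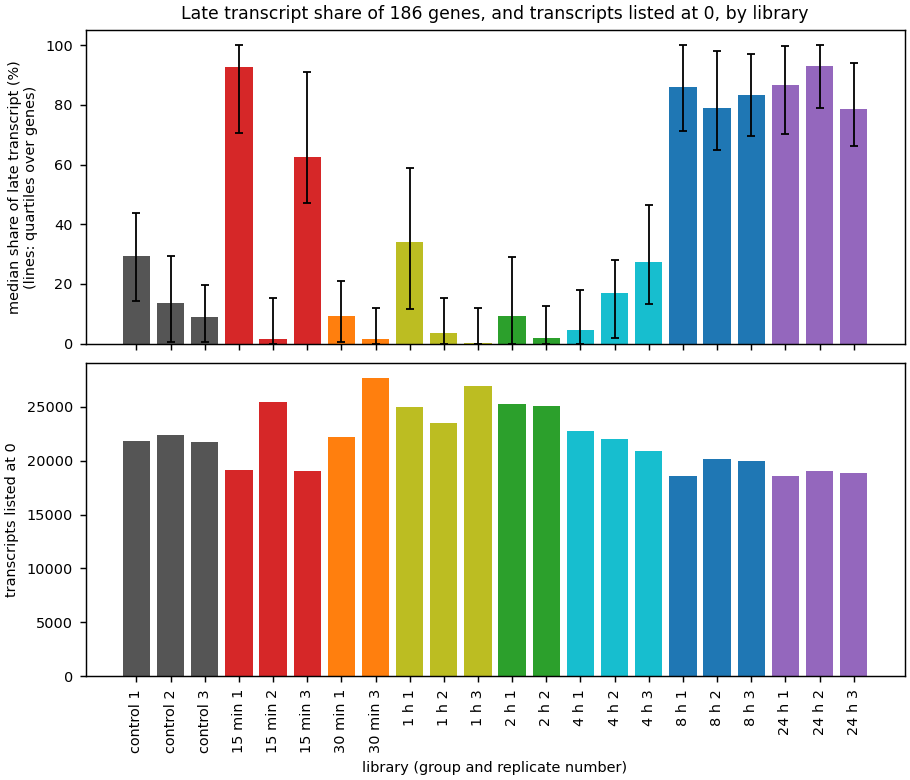
Upper panel: median over 186 genes of the late transcript's share (percent, bars; lines span the quartiles over genes) in each of 22 libraries. Lower panel: transcripts listed at 0 in the same libraries. The 8 libraries with median shares of 62.6% or more each list 20108 or fewer transcripts at 0.

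The number of transcripts listed at 0 moved with the switch. The 8 libraries with the fewest, 18599 to 20108, were the 6 of 8 h and 24 h and replicates 1 and 3 of 15 min, and they had the late transcript larger in 140 to 183 of the 186 genes. The other 14 libraries, with 20873 to 27673 transcripts at 0, had it larger in 5 to 61. The 8 were set by sorting on the number of zeros, so a gap on that measure is no finding. The control, 8 h and 24 h libraries chose the genes, so their numbers of genes follow from the rule. Among the libraries that the rule did not use, 15 min replicates 1 and 3 had 181 and 140 genes, and all others at most 61. Within the 14, the number of genes did not follow the number of zeros in strict order. Replicate 1 of 1 h had 61 genes at 24964 zeros, while control replicates 2 and 3 had 5 genes at 22350 and 21759 zeros. The median late share in the 14 tended to be lower where zeros were more, with exceptions. It was 27.2% and 16.8% in 4 h replicates 3 and 2, at 20873 and 22031 zeros. It was 0.319% and 1.61% in 1 h replicate 3 and 30 min replicate 3, at 26899 and 27673 zeros. Among the exceptions were 1 h replicate 1, at 34.0%, and 2 h replicate 1, at 9.29% and 25230 zeros. For 8 h and 24 h against control, the time and the number of zeros cannot be told apart, and the part of the number of zeros in the switch was not tested there.

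**Figure D3:**
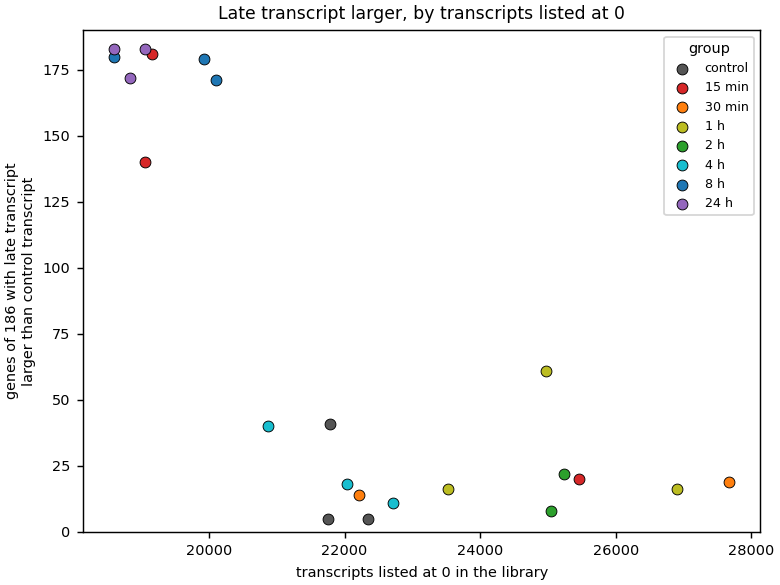
Genes of 186 with the late transcript larger than the control transcript (vertical axis) against transcripts listed at 0 (horizontal axis), 1 point per library, coloured by group. The 8 points at upper left are all libraries of 8 h and 24 h and 2 of the 3 at 15 min; the other 14 lie at or below 61 genes.

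The 12 most abundant of the 102 genes in which every library of 8 h, 24 h and control had the main transcript the rule gives make the switch visible in single libraries. In these 12 genes the late transcript was larger than the control transcript in 7 to 10 of the 19 LCO libraries.

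Potri.013G064400 had the highest sum, with 2 transcripts listed. Its late transcript, number 2, had 289, 207 and 162 TPM at 8 h and 213, 296 and 295 TPM at 24 h, against 117, 126 and 71.7 TPM in control roots. Its control transcript, number 1, had 37.7, 59.1 and 79.5 TPM at 8 h and 77.5, 0.026 and 65.1 TPM at 24 h, against 188, 249 and 343 TPM in control roots. Neither transcript's late values overlapped its control values. At 15 min the late transcript had 269, 45.9 and 199 TPM and the control transcript 2.31, 487 and 160 TPM, so that replicates 1 and 3 had the order of the late times and replicate 2 that of the control.

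Potri.013G011000 had 2 transcripts listed, and its late transcript was number 1. The late transcript had 164, 144 and 164 TPM at 8 h and 248, 245 and 213 TPM at 24 h, against 120, 101 and 57.8 TPM in control roots. The control transcript, number 2, had 99.0, 86.4 and 69.0 TPM at 8 h and 75.5, 59.9 and 102 TPM at 24 h, against 157, 160 and 203 TPM in control roots. Both transcripts were abundant in every one of these libraries, and the order between them turned round without overlap. At 1 h the late transcript had 141, 26.1 and 5.73 TPM, with replicate 1 close to the level of the late times.

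Potri.001G338400 gave a like picture at a lower level, and 1 h replicate 1 already had its late order. The share of its late transcript, number 1, was 74.2%, 76.9% and 80.9% at 8 h and 69.9%, 82.1% and 75.5% at 24 h, against 42.8%, 31.2% and 27.6% in control roots. At 1 h the share was 65.6%, 1.18% and 0%, so that replicate 1 was high while replicate 3 listed the transcript at 0.

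In Potri.010G253500 the exchange was nearly complete, and in Potri.014G174000 the late transcript was near 0 in control roots. The late transcript of Potri.010G253500, number 1 of 2 listed, had 88.1, 96.0 and 110 TPM at 8 h and 91.0, 96.1 and 84.7 TPM at 24 h, against 9.79, 0.0302 and 1.41 TPM in control roots. Its control transcript, number 2, had 0.0452, 3.51 and 3.84 TPM at 8 h and 5.66, 0.0055 and 8.61 TPM at 24 h, against 53.0, 73.0 and 90.1 TPM in control roots. The late values of each transcript lay far outside its control values. In Potri.014G174000 the late transcript, number 1 of 2 listed, had 71.8, 57.5 and 44.2 TPM at 8 h and 87.8, 100 and 99.1 TPM at 24 h, against 0.0328, 0.0603 and 0.0216 TPM in control roots. It had 48.3, 0 and 40.3 TPM at 15 min, which again set replicate 2 apart from replicates 1 and 3.

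Potri.008G084800 and Potri.001G208200 also turned round strongly. In Potri.008G084800, with 5 transcripts listed, the late transcript, number 2, held 96.4%, 93.2% and 95.3% of the sum at 8 h and 90.3%, 96.9% and 91.3% at 24 h, against 40.2%, 42.6% and 19.5% in control roots. It also held 53.1% in replicate 3 of 4 h, against 3.95% and 10.4% in the other 4 h libraries. In Potri.001G208200 the late transcript, number 1, held 89.0%, 77% and 92.9% at 8 h and 89.8%, 96.2% and 92.6% at 24 h, against 38.8%, 30.5% and 7.18% in control roots. Its control transcript, number 6, was listed at 0 in 15 min replicate 1.

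The remaining 5 of the 12 had late shares of 51.4% to 82.9% at 8 h and 24 h. Potri.014G160400 had its late transcript at 76.5%, 62.2% and 69.8% at 8 h and 68.1%, 67.8% and 58.9% at 24 h, against 34.6%, 24.8% and 25.0% in control roots. Potri.002G184300 had 71.3%, 70.6% and 69.7% at 8 h and 73.4%, 82.9% and 76.3% at 24 h, against 37.5%, 32% and 21.3% in control roots. In both genes the control transcript remained present in every library of the late times. Potri.007G008000 had 65.2%, 61.2% and 79.8% at 8 h and 51.4%, 72.5% and 55.1% at 24 h, against 37.0%, 30.9% and 39.7% in control roots. Potri.003G166400, whose control transcript was at or below 2.20 TPM in every late library, had 72.2%, 69.6% and 66.8% at 8 h and 55.3%, 61.8% and 67.1% at 24 h, against 17%, 31.3% and 7.26% in control roots. The rest of the sum of Potri.003G166400 at the late times therefore came from its other transcripts. Potri.008G118500 had 70.6%, 54.3% and 66.3% at 8 h and 52.4%, 68.7% and 59.0% at 24 h, against 26.5%, 5.16% and 0.0609% in control roots.

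**Figure D4:**
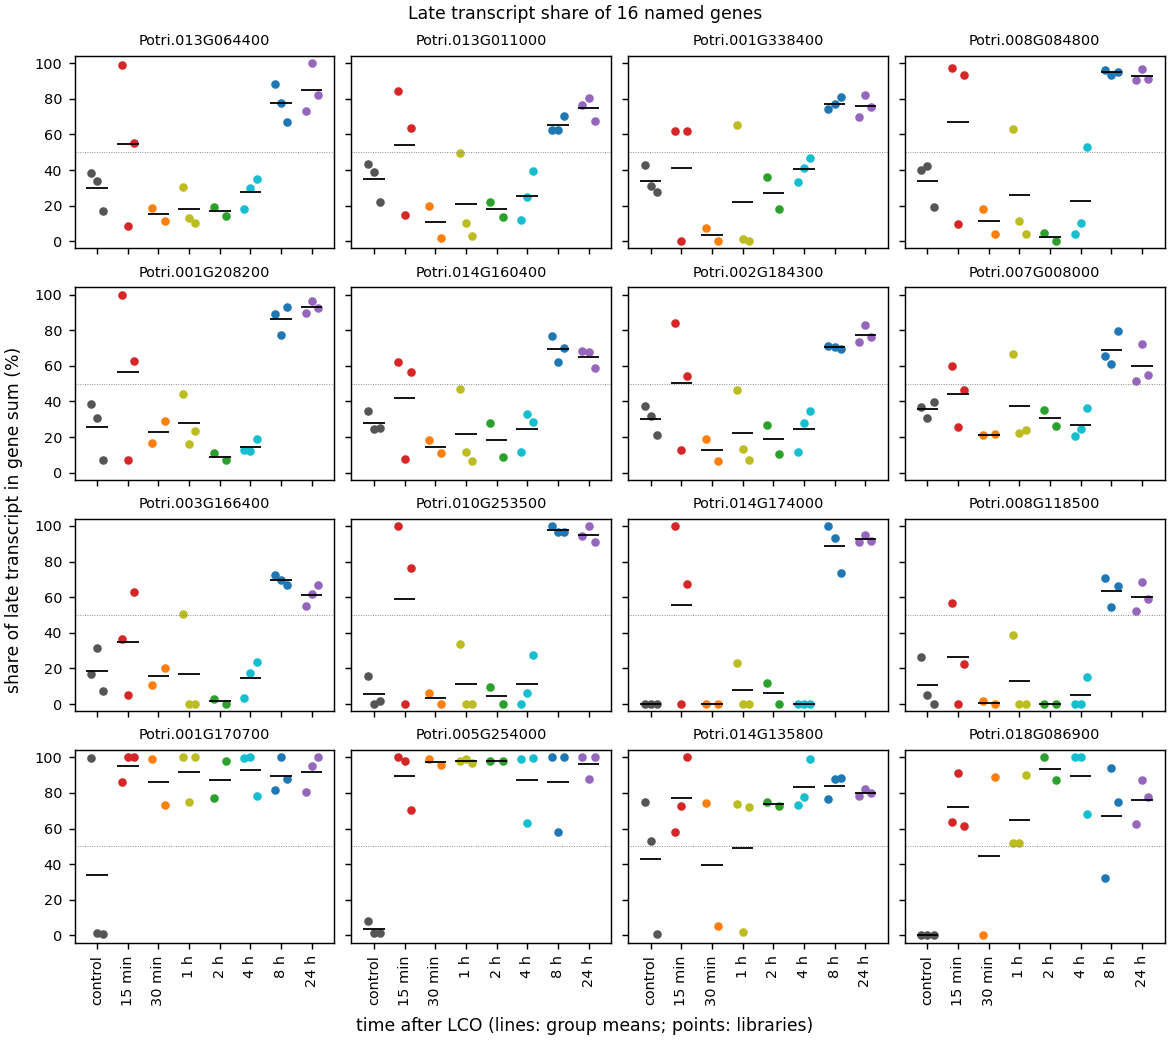
Share of the late transcript in the gene's sum (percent, vertical axis) in each library (points, coloured by group) for 16 genes, with group means as lines and time after LCO on the horizontal axis; the dotted line marks 50%. The upper 12 panels are the most abundant genes with the same order in every library of 8 h, 24 h and control, with every point of 8 h and 24 h above 50%; the lower 4 are genes whose late transcript was larger in 17 or more of 19 LCO libraries.

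In 5 genes, all of low abundance, the late transcript was larger than the control transcript in at least 15 of the 19 LCO libraries. These were chosen after their values were seen, and in 3 of them the late transcript was also larger in at least 1 control library. In Potri.005G254000, with 2 transcripts listed, the late transcript, number 2, had 10.2, 7.11 and 5.45 TPM at 15 min and between 3.71 and 7.52 TPM in all 16 later libraries, against 0.43, 0.0683 and 0.0661 TPM in control roots. Its share in LCO libraries ran from 58.1% upward, and no LCO library overlapped the control libraries, which held 8.01%, 1.12% and 1.30%. In this gene, 15 min replicate 2, at 98.1%, did not stand apart.

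Potri.001G170700 also had the late transcript larger in all 19 LCO libraries, at 73.4% of the sum or more. Its control libraries held 99.4%, 1.57% and 0.649%, so that control replicate 1 had the late order. Potri.014G135800 and Potri.018G086900 had the late transcript larger in 17 of 19 LCO libraries. In Potri.014G135800 the control shares were 75.1%, 52.8% and 0.677%, all below the shares of 76.4%, 88.0% and 88.2% at 8 h and of 78.3%, 82.3% and 80.2% at 24 h, with replicate 1 close to them. The late transcript of Potri.018G086900 was listed at 0 in all 3 control libraries and had 0.716, 4.02 and 3.33 TPM at 8 h and 3.71, 4.82 and 3.26 TPM at 24 h. In Potri.019G052500, with 16 of 19, the control shares of 65.9%, 43.6% and 12.7% overlapped the 8 h shares of 56.4%, 55.5% and 91.9%.

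To ask whether the balance between the transcripts moved among libraries that the rule did not use, the difference of log2(TPM + 1), late transcript minus control transcript, was tested between 1 h and 15 min and between 4 h and 1 h. The fit was made in limma over 4484 genes, with a corresponding pair of transcripts in every gene, and all 186 genes were among them. P-values here measure the spread between libraries of pooled roots. That spread, and the abundance limits for entry, came from all 22 libraries, including the control, 8 h and 24 h libraries that chose the 186 genes. Fitted on the libraries of both groups alone, 0 of the 186 genes passed in either comparison. Of all 4484 genes, 0 then passed between 1 h and 15 min and 2 between 4 h and 1 h.

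Between 1 h and 15 min, 177 of the 186 genes had a lower balance at 1 h and 9 a higher one, with a median log2 difference of -2.33. In the other 4298 genes, 2689 had a lower balance and the median was -0.36. The median in the 186 genes was -1.22 without 15 min replicate 1, with 162 lower, and -3.71 without 15 min replicate 2, with 185 lower. With the number of transcripts at 0 in each library as a covariate, a setting added after seeing the data, it was -0.58, with 51 genes higher and 135 lower. In limma, 2 of the 186 genes passed an adjusted p of 0.05, both lower, while 0.223% of all 4484 genes passed in either direction and 0.0892% were lower. Leaving out 15 min replicate 2, 126 of the 186 genes passed, all lower, while 28.8% of all genes tested passed and 23.5% were lower. Leaving out 1 h replicate 1, 10 passed (5.38%), close to the 4.28% of all genes tested. Without 15 min replicate 3, 1 passed (0.538%), against 0.491% of all genes tested. None of the 186 passed without 15 min replicate 1, 1 h replicate 2 or 1 h replicate 3. With that covariate, 0 of the 186 passed, with 10 at an unadjusted p under 0.05, while 340 of all 4484 genes were under 0.05.

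The genes that passed were of low abundance. In Potri.001G036100, the late transcript, number 3, had 1.02, 1.41 and 1.41 TPM at 1 h, against 8.19, 5.94 and 5.29 TPM at 15 min. Its control transcript, number 4, had 2.40, 3.39 and 3.08 TPM at 1 h, against 0.0003, 0.172 and 0.0244 TPM at 15 min. The groups did not overlap, and here 15 min replicate 2 went with replicates 1 and 3. The balance fell by 3.59 on the log2 scale (SE 0.69, limma adjusted p = 0.0429). Over 13 alternative settings the log2 difference ran from -6.57 to -1.51 and the limma adjusted p from 0.00455 to 0.606, and 8 of the 13 lost the call.

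The shares of Potri.001G036100 took nearly fixed values. The late transcript held 28.8%, 28.9% and 29.3% in control roots, 26.7% to 32.9% in every library of 30 min to 4 h other than 4 h replicate 3, and 99.6% in that library. It held 97.2% or more in all 3 libraries at 15 min, 99.9% or more at 8 h, and 100%, 68.0% and 100% at 24 h. The gene was thus at a low plateau or near 100% in 21 of the 22 libraries.

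In Potri.015G020800, with 6 transcripts listed, the late transcript, number 1, had 0.0922, 0 and 0.17 TPM at 1 h, against 3.50, 6.62 and 3.07 TPM at 15 min. Its control transcript, number 5, had 4.08, 6.01 and 8.01 TPM at 1 h, against 2.73, 0 and 0.952 TPM at 15 min. The balance fell by 4.08 on the log2 scale (SE 0.81, limma adjusted p = 0.0470), with no overlap of the groups. Over 13 alternatives the log2 difference ran from -7.76 to -1.70 and the limma adjusted p from 0.00923 to 0.668, and 7 of the 13 lost the call. In this gene 15 min replicate 2 had the highest late share of all, 100%.

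Single transcripts of the 186 genes were called between 1 h and 15 min about as often as transcripts in general. In limma, 14 of 370 tested passed (3.78%), while 4.38% of all 29885 transcripts passed, 2.07% higher and 2.32% lower. Of the control transcripts of the 186 genes, 6 of 186 tested rose at 1 h and 0 fell. Of the late transcripts, 8 of 184 tested fell and 0 rose. Leaving out 15 min replicate 2, 98 control transcripts rose and 1 fell, and 108 late transcripts fell and 0 rose, while 26.8% of all transcripts passed, 12.9% higher and 14% lower. Leaving out 1 h replicate 1, 30 transcripts of these genes passed (8.11%), against 7.62% of all transcripts. Leaving out any other single library of the 2 times, 2 to 4 passed (0.541% to 1.08%), against 0.816% to 1.94% of all. With all libraries the median log2 difference was 1.04 for control transcripts and -1.23 for late transcripts. Without 15 min replicate 2 it was 1.58 for control transcripts and -1.98 for late transcripts.

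Between 4 h and 1 h the balance of 107 genes was higher at 4 h and that of 79 was lower, with a median log2 difference of 0.25. In the other 4298 genes, 2445 had a lower balance and the median was -0.13. The direction in the 186 genes turned with the libraries used. The median was -0.15 without 4 h replicate 3, with 83 genes higher and 103 lower. It was -0.16 without 1 h replicate 3 and -0.02 without 1 h replicate 2. Without 1 h replicate 1 it was 0.92, with 146 genes higher and 40 lower, and without 4 h replicate 1 it was 0.46. With the number of transcripts at 0 as a covariate, 32 genes were higher and 154 lower, and the median was -1.16. In limma, 0 of the 186 genes passed, with 12 at an unadjusted p under 0.05, while 0.0223% of all 4484 genes passed, with 323 at an unadjusted p under 0.05. Of 370 transcripts of these genes that were tested, 0 passed, with 21 at an unadjusted p under 0.05, while 7.11% of all 29885 transcripts passed, with 6265 at an unadjusted p under 0.05. Leaving out 1 h replicate 1, 6 of these transcripts passed (1.62%), against 7.44% of all transcripts. Without 4 h replicate 1, 5 passed (1.35%, against 4.68%), and without 4 h replicate 3, 2 passed (0.541%, against 4.57%). Without 1 h replicates 2 and 3, 1 each passed (0.27%, against 4.69% and 5.35%). The libraries differed more within each time than the times did: the median late share was 4.72%, 16.8% and 27.2% at 4 h, against 34.0%, 3.43% and 0.319% at 1 h.

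The direction of the switch had a common feature in the transcript numbers, which the rule did not use. Numbers name the transcripts of a gene in the annotation, and what they stand for in this annotation was not examined. The late transcript had the lower number in 148 of the 186 genes and the higher one in 38. It was number 1 in 94 genes, while the control transcript was number 1 in 17. The late transcript was the lowest-numbered of those listed in 124 genes (66.7%), and the control transcript in 29 (15.6%). In the other 5720 genes the largest transcript was the lowest-numbered one in 46.9% of genes over the late times and in 43.9% in control roots. Both sets of genes had the same course over libraries. At 15 min the median late share was 93.7%, 1.86% and 62.5% in the 148 genes whose late number was lower, and 86.6%, 1.14% and 66.5% in the 38 whose late number was higher.

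The share of the lowest-numbered transcript differed between libraries in the other genes too. The 186 genes were chosen for an exchange between control roots and 8 h and 24 h, so a larger difference in them over those libraries follows from the rule and is no finding. The median share of the lowest-numbered transcript in the 186 genes was 65.3% to 73.9% at 8 h and 66.9% to 80.4% at 24 h, against 8.75% to 23.6% in control roots. In the other 5720 genes it was 39.2% to 40.0% at 8 h and 38.7% to 42.9% at 24 h, against 25.5% to 32.4% in control roots. At 15 min the 186 genes had 76.7%, 1.91% and 52.2%, and the other genes 47.6%, 20.0% and 37.4%. In both sets, 15 min replicates 1 and 3 lay with the late libraries and replicate 2 lay below all control libraries.

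**Figure D5:**
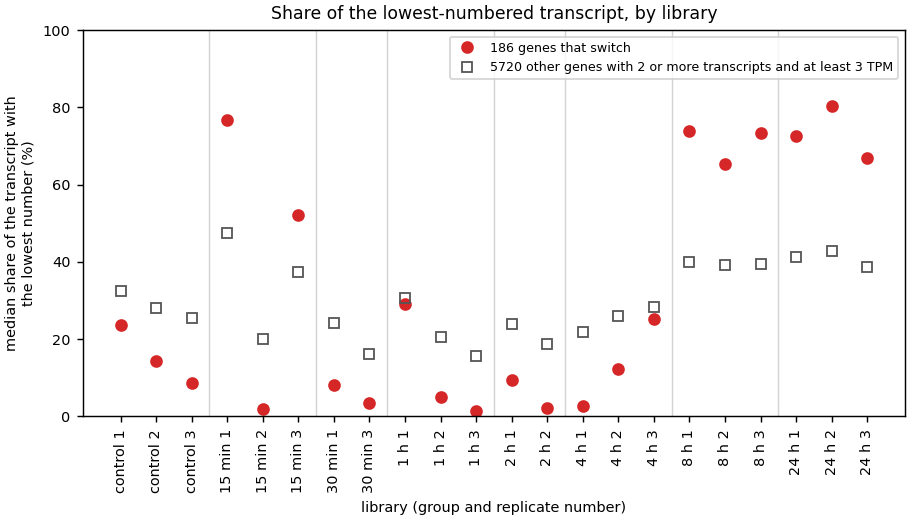
Median share of the lowest-numbered transcript in the gene's sum (percent, vertical axis) in each library (horizontal axis) for the 186 genes (filled circles) and for 5720 other genes with 2 or more transcripts and at least 3 TPM (open squares). Both sets are highest in the libraries of 8 h, 24 h and 15 min replicates 1 and 3, and the 186 genes span 1.5% to 80.4% against 15.6% to 47.6% in the others.

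Choosing the genes without 1 replicate of each group, and then reading the libraries left out, gave a measure of how well the choice carries over. Without replicate 1, 227 genes met the rule, and 58.6% of them had the same order of the main transcripts in all 3 libraries left out. Without replicate 2 the values were 181 genes and 73.5%, and without replicate 3 they were 149 genes and 69.1%. The left-out library of 8 h held the order in 95.2%, 87.3% and 85.9% of genes and that of 24 h in 94.7%, 95.6% and 88.6%, against 65.6%, 85.6% and 88.6% for the control library. Control replicate 1 was thus the library that least often had the order of its group, and its median late share of 29.2% was the highest of the 3 controls.

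The steadiness of the order was also read by abundance, in the libraries that the rule used and therefore as a description. Among the 93 genes with the higher sums, 63 had the order of the rule in every library of 8 h, 24 h and control, against 39 of the 93 with the lower sums. The median SD of the late share over libraries was 7.15 percentage points at 8 h and 7.50 at 24 h, against 12.6 in control roots, in the genes with higher sums. In those with lower sums it was 10.3 at 8 h and 9.46 at 24 h, against 14.9 in control roots. At 15 min the median SD over all 186 genes was 43.0 percentage points, the highest of the 8 groups.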

How the data were processed

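Per the names given to the deposited tables and their values, the authors' tables hold the natural log of (TPM + 1) per transcript and per gene, quantile-normalized across libraries. Base e was settled from the values: back-transformed, the libraries sum to 935370 to 935905 TPM. The submitters' processing notes name kallisto and sleuth but neither's version nor its role. The assembly behind the identifiers was not given in the sources used here. TPM keeps no depth, so no counting interval can be given, and quantile normalization removes changes in total output. Genes with near-identical copies are uncertain, and were not sought among the 186. Of 24 labelled samples, 22 had a column; 30 min replicate 2 and 2 h replicate 3 were not analysed here.

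The members, lists and rules were chosen with earlier results of these data known. Values were back-transformed to TPM. The balance, log2(TPM + 1) of the late minus the control transcript, was fitted in limma 3.58.1 under R 4.3.3, two-sided, with 8 group means over 22 libraries and 14 residual degrees of freedom, and adjusted by the Benjamini-Hochberg method over all genes tested. Genes entered with a pair sum of at least 3 TPM and at least 0.5 TPM for each transcript, and single transcripts with a mean of at least 1 TPM. The procedure was tested on simulated data with noise drawn separately for each gene, and so without shifts shared by a whole library. Between 1 h and 15 min, the balance fit called 11 of 50 genes changed by 2 on the log2 scale. It called 30 of 50 changed by 4. Between 4 h and 1 h the numbers were 10 and 29 of 50. Unchanged genes called numbered 3 and 1. Changes of these sizes were thus often missed. The design had assumed TPM and 24 libraries. Planned naming of genes by product was void without an annotation. TPM or shares in single libraries, for some of the groups, are given for the 12 most abundant genes with the rule's order in every library. The same was done for genes with balance called. Values at the limits are given for the 2 genes nearest on each side. The main fits had no replicate block, and whether the replicate numbers pair the samples was not settled. Counts with a block are given below. Figures were made in matplotlib 3.10.9 (Python 3.11.15).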

Additional observations from a re-analysis of the deposited data

How the results depend on the processing

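The number of genes that met the rule was 382 with a main transcript at 50% of the sum and 78 at 70%, 80 with a sum of at least 10 TPM, 95 with a limit on the sum of 0.32, and 304 with no such limit. It was 102 when every library had to have the order of the rule, and 148 to 241 when 1 library was left out. The share of genes that held in the libraries left out was 58.6% without replicate 1, and 69.1% to 73.5% without the others.

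For balance between 1 h and 15 min, the genes called among the 186 numbered 1 with a pseudocount of 0.1 TPM and 0 with a stricter filter, a fit to both groups alone, the replicate block and transcripts at 0 as a covariate (added after seeing the data); leaving out 1 library gave 0 to 126. Over all genes tested, 16 were called with a pseudocount of 0.1 TPM, 24 with one of 5 TPM, 31 with no filter, 1 with the stricter filter, 0 with only both groups, 5 with the replicate block, 4 with the covariate, and 1 to 1292 leaving out 1 library. Called transcripts of the 186 genes numbered 6 with the lower pseudocount, 5 with no filter, 0 with only both groups, 2 with the covariate and 2 to 207 leaving out 1 library. The shares of all transcripts called were, in the same order, 3.53%, 1.67%, 0.0234%, 0.673% and 0.816% to 26.8%.

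Between 4 h and 1 h, 0 of the 186 genes were called under all 14 alternatives run. Their called transcripts numbered 1 with the stricter filter, 3 with only both groups, 5 with the covariate and 0 to 6 leaving out 1 library. The shares of all transcripts called were, in the same order, 9.37%, 3.86%, 6.05% and 3.63% to 7.44%. Over the whole table, genes called numbered 5 with a pseudocount of 5 TPM, 30 with no filter, 2 with only both groups, 2 with the replicate block and 1 to 39 leaving out 1 library. Whether the replicate numbers pair the samples was not settled. Correlations of same-numbered deviations in balance were -0.38, -0.02 and -0.27 for 4 h with 1 h, and 0.43, 0.31 and -0.33 for 1 h with 15 min. Deviations from a group mean depend on each other, so these correlations cannot decide it. The cause of the changes in calls between settings was not tested. Unknown depth limits every value of a few TPM.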

Other observations

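Beside the 186 genes, 118 others exchanged their main transcript by the same shares but had a sum that differed from the control by 0.58 or more on the log2 scale at 8 h or 24 h. Of these 118, the sum was higher at both late times in 85 and lower at both in 27. Of 5222 genes with a 60% main transcript in control roots, 363 had another at 60% at 8 h and 429 at 24 h. In 304 genes this held at both times, and in 0 of them did 8 h and 24 h have different main transcripts.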
